A study of Drosophila melanogaster with 16 samples.

Results

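The subject here is the gene expression of Drosophila eye discs labelled mutant for Psc and Su(z)2 (allele label 1.b8), compared with control eye discs of the same FRT42D strain. Both groups came from L3 larvae, and each was 1 sample that stands for 2 replicates. The mutant chromosome and the control share the FRT42D strain label, FRT being a recombination site used to make clones of mutant cells. The sources used here do not state whether the discs were wholly mutant or mosaic, how many animals were pooled, or whether the replicates were separate crosses. The members are all 6170 genes of the authors' deposited table for this comparison, that is, every gene with a false discovery rate under 5% in the authors' edgeR test. They were 69.4% of the 8886 genes that the adjustment covered, and 6774 genes were called in at least 1 of the 4 mutant tables of the series. The other mutant discs, labelled Ez731 and Suz12 (control FRT2A) and PH505 (control FRT19A), serve only as context and share no control with Psc-Su(z)2.

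The deposited table gives, for each gene, 1 log2 fold, 1 log2 CPM (the log2 of CPM, reads scaled to library size and not corrected for gene length) and an adjusted p. It holds no value per arm or replicate, so no level in mutant or control and no spread between replicates can be shown, and every gene's error is known only through the authors' edgeR adjusted p. A positive log2 fold is read here as higher in the mutant, because Psc itself stands at -3.94. The sources give no library totals, and the depth behind each value is therefore unknown. A gene missing from the table was either not called, not tested or listed under an older identifier, and is never read as unchanged. These are bulk discs, in which fewer cells of a type and less RNA per cell cannot be told apart.

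Psc and Su(z)2 are neighbouring, related genes, and each encodes a RING finger subunit of Polycomb repressive complex 1 (PRC1). PRC1 compacts chromatin and holds developmental genes silent outside their proper domains, together with PRC2, the complex that methylates histone H3. The eye disc is a larval epithelium in which retinal selector genes first commit cells to eye fate, and a front of differentiation then recruits photoreceptors through Notch, EGFR and Hedgehog signals. In flies, discs lacking both genes are known for tissue overgrowth with activated JAK-STAT signalling.

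Of the 6170 called genes, 3154 were higher in the mutant (35.5% of genes tested) and 3016 were lower (33.9%). This balance depends on scaling, since 1197 were higher and 4973 lower when folds were centred on the cytosolic ribosomal protein genes, whose median log2 fold was 0.88. The call alone says little about size: 1868 genes, or 30.3% of calls, differed by less than 0.5 on the log2 scale, and another 1820 by 0.5 to 1. A change of at least 2-fold was listed for 2482 genes (27.9% of genes tested). At that size the balance turned, with 996 genes higher (11.2%) and 1486 lower (16.7%). The largest changes were lower more often still, since 284 of the 390 genes with a log2 fold of at least 4 in size were lower. The median log2 fold was 0.72 among higher genes and -0.97 among lower genes, and 0.21 over all calls.

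On the deposited scale, direction went with expression. Calls were split into 4 equal groups by log2 CPM. In the lowest group, 32.9% of 1543 calls were higher (exact 95% interval 30.6% to 35.3%) and the median log2 fold was -1.54. In the other groups, in rising order, 59.9%, 57.1% and 54.6% were higher, with medians of 0.41, 0.26 and 0.24. The 2-fold changes in the lowest group were 370 higher and 933 lower, whereas in the highest group they were 217 higher and 138 lower. Centred on the cytosolic ribosomal protein genes the order turned, with 26.2% higher in the lowest group and 19.0% in the highest. Only called genes are listed, and a weakly expressed gene needs a large fold to be called, so the sizes of folds in the lowest group are set in part by the call. By chromosome arm, 49.5% of calls were higher on 2L, 54.1% on 2R, 50.0% on 3L, 51.1% on 3R and 51.6% on X, with 41.0% of 61 calls on 4; no test of arms was made.

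**Figure D1:**
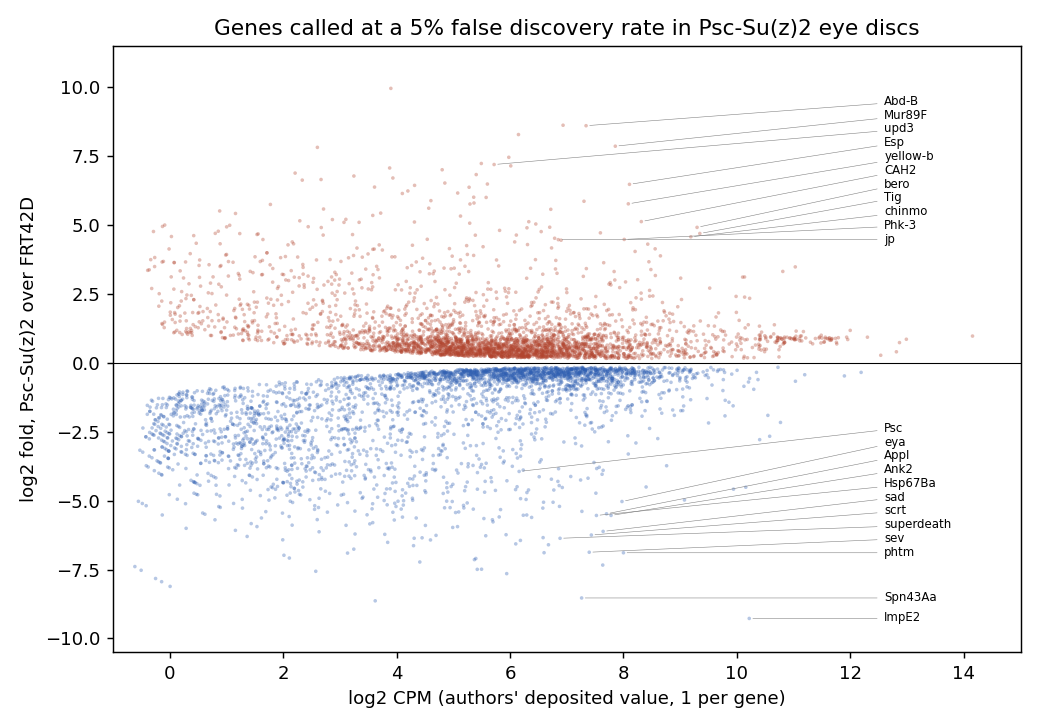
Authors' log2 fold (Psc-Su(z)2 over FRT42D) against log2 CPM for the 6170 called genes, with each point 1 gene, red higher and blue lower in the mutant. Named points are the highest and lowest folds in the top 25% of calls by log2 CPM together with upd3, eya and Psc; Abd-B reached 8.61 and ImpE2 -9.27.

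The mutated locus was read first. Psc stood at -3.94 on the log2 scale (authors' edgeR adjusted p = 9.33e-242). The direction of all folds was read from this value, so a lower Psc is assumed here and is not a result. The PH505 table lists Psc higher, at 0.96. Su(z)2 lies 3 genes from Psc and is not listed under its current identifier, so its level was not analysed here. Of the 10 genes on each side of Psc, 8 were listed, 3 higher and 5 lower. Only 1 of the 5 nearest on each side was listed: Mdr49, an ABC transporter of the multidrug resistance type, stood at -2.68 (authors' edgeR adjusted p = 1.29e-52). Farther out, Drl-2, a receptor tyrosine kinase of the Derailed family, stood at -3.02 and CG3955 at -3.35, but CG13325 was at 6.15. The remaining listed neighbours were closer to 0: Sans 0.88, CG17019 0.41, SCCRO3 -0.91 and sug -0.97. Changes beside the locus therefore ran in both directions, and 12 of these 20 neighbours were not listed.

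**Figure D2:**
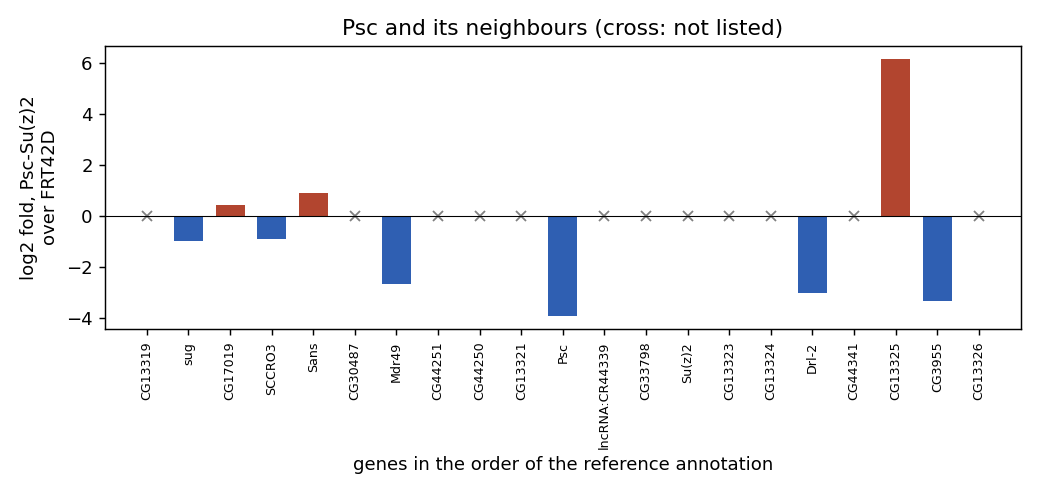
Authors' log2 fold of Psc and of the 10 annotated genes on each side, in gene order (x axis, not to distance), with crosses for genes that the deposited table does not list under their current identifier. Psc, at -3.94, is flanked by genes that are mostly not listed, and the farther neighbours CG13325 (6.15) and CG3955 (-3.35) lie on opposite sides of 0.

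Among the top 25% of calls by log2 CPM (from 6.85 upward), the highest fold belonged to Abd-B, the Hox gene of the most posterior segments, at 8.61. Next came Mur89F, a mucin-related gene, at 7.86, and Esp at 6.48. Secreted or membrane products followed: yellow-b at 5.77, the carbonic anhydrase gene CAH2 at 5.13, bero at 4.92 and the integrin ligand gene Tig (Tiggrin) at 4.69. The list was completed by chinmo, a transcription factor of early temporal identity, at 4.57, Phk-3 at 4.48 and the junctophilin gene jp at 4.47.

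The lowest folds among these genes were led by ImpE2, an ecdysone-inducible secreted protein gene, at -9.27, and the serpin gene Spn43Aa at -8.53. The Halloween cytochromes phtm and sad, which make ecdysone, stood at -6.89 and -6.12. Products of differentiating photoreceptors and neurons made up several of the others: sev, the receptor for R7 fate, at -6.87, the neuronal zinc finger gene scrt at -6.25, the neuronal ankyrin gene Ank2 at -5.54 and the amyloid precursor-like gene Appl at -5.48. The remaining genes were superdeath at -6.37 and the small heat shock gene Hsp67Ba at -5.54.

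Retinal identity was lower throughout its hierarchy. The 10 retinal determination genes were all listed, 9 of them lower, with a median log2 fold of -2.11 against 0.21 over all calls. The phosphatase and co-activator gene eya was lowest at -5.03. Its partner so stood at -2.76, dac at -2.86 and the Pax6 gene ey at -2.21. The exception was Optix, a homeobox selector, at 0.40.

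Photoreceptor and cone cell genes were lower by more. Of 23 such genes 21 were listed, 19 lower and 2 higher, with a median of -3.03. The proneural gene ato, which founds the R8 cell, stood at -5.65 and sens, which maintains R8, at -5.30. Recruitment genes were as low, with phyl at -6.35, ro at -6.21, svp at -5.41 and gl at -5.39. The Pax2 gene sv, used in cone cells, was the largest exception, at 1.07.

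Head identity outside the retina moved the same way. Of 13 antenna and head selectors 11 were listed and 10 were lower, with a median of -1.79. The nuclear factor genes danr and dan stood at -5.32 and -4.61, and the antennal homeobox gene al at -4.60. The antennal selectors ss (-1.79) and hth (-1.73) and the head gap gene ems (-2.22) were lower by less, and ct was higher at 0.68. The lower calls therefore covered antennal and head selectors as well as the retina.

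Selectors of other body regions were mixed rather than uniformly higher. Of the 8 Hox genes 7 were listed and 6 were higher: Dfd stood at 0.57, Scr at 1.86, Antp at 2.87, abd-A at 6.83 and pb at 7.46 beside Abd-B. The head Hox gene lab was lower at -2.39, and Ubx was not listed. The posterior gut genes cad, byn and fkh stood at 7.23, 4.91 and 2.36, all higher. Most other segmentation genes were lower, so that 7 of 21 listed members of that list were higher, though 3 of 5 were higher from the median log2 CPM upward. The pair-rule gene eve was higher at 6.89 and the pair-rule gene run lower at -5.69. The gap genes kni (-3.15), knrl (-3.11) and tll (-3.56) were lower, and the gap gene Kr was higher at 1.40.

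Of 16 wing, leg and genital disc selectors 12 were listed, 7 higher and 5 lower, with a median of 0.35; centred on the cytosolic ribosomal protein genes, 5 of 12 were higher. The wing selectors vg and nub stood at 3.8 and 2.65, and the leg genes btd and Sp1 at 1.71 and 1.42. The Iroquois genes of the dorsal eye and wing, ara, caup and mirr, were lower at -2.69, -2.23 and -1.45. The other listed wing genes were nearer 0 or lower, with tup at 0.29, Doc1 at -0.54 and Doc3 at -1.21, so the wing genes had no common direction.

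**Figure D3:**
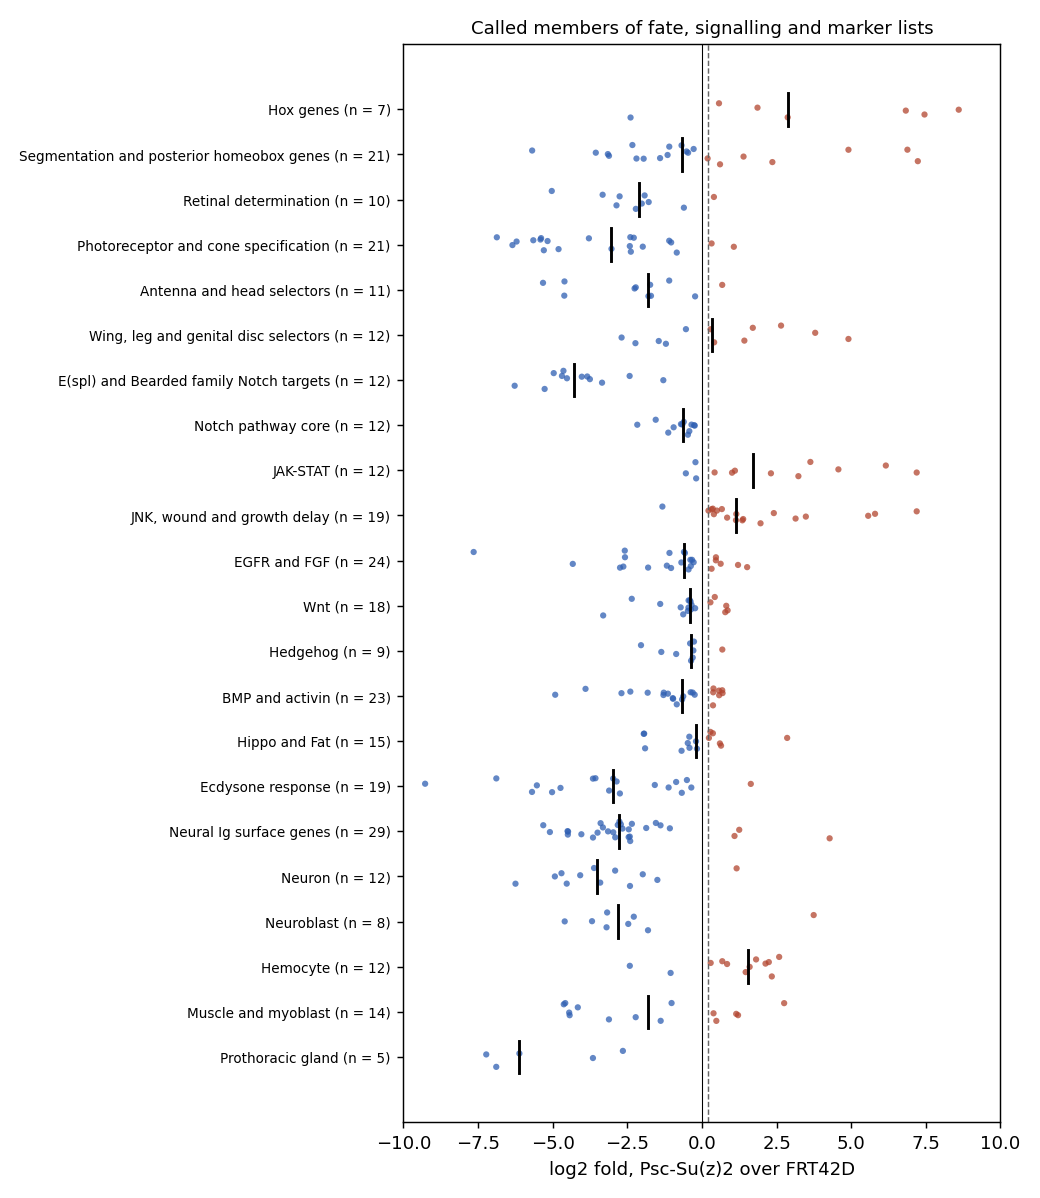
Authors' log2 fold of every called member of fate, signalling and marker lists, with n the number called, each point 1 gene, the black bar the list's median over called members and the dashed line the median over all calls (0.21). The retinal, photoreceptor, Notch target and neuronal lists lie mostly below -2, and the JAK-STAT and JNK lists lie mostly above 0.

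Notch pathway genes were lower at every level that was listed. All 12 listed core genes of 15 were lower, with a median of -0.63: the ligand gene Delta stood at -2.17, the ligand gene Ser at -0.70 and the receptor gene N at -0.61. The co-activator mam was at -1.13 and the inhibitor numb at -1.55. The targets were lower by far more than the core. All 12 listed members of the E(spl) and Bearded families, out of 18, were lower, with a median of -4.27. Their bHLH repressor genes had a median of -4.66 over 6 genes, from E(spl)mdelta-HLH at -6.27 to E(spl)m3-HLH at -1.29. Their Bearded family genes, which block the ligand's ubiquitin ligase, had a median of -3.93 over 6 genes, from E(spl)m4-BFM at -5.27 to E(spl)m2-BFM at -2.42.

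Neuronal genes were lower alongside. Of 13 neuron markers 12 were listed and 11 were lower, with a median of -3.51. The presynaptic scaffold gene brp stood at -4.93, nSyb of the synaptic vesicle at -4.08, Syt1 at -3.41 and the microtubule gene futsch at -3.61, whereas Syx1A was higher at 1.16. Neural immunoglobulin surface genes of the dpr, DIP and side families, several of which match synaptic partners, had 29 of 54 members listed. That is 53.7%, against 69.4% of all genes tested. Of the 29 listed, 26 were lower, with a median of -2.76. DIP-delta stood at -5.32, dpr12 at -5.09 and dpr5 at -4.50, and dpr17 was the largest exception at 4.28. All 8 neuroblast markers were listed, 7 of them lower. They included ase at -4.60 and mira at -3.68, with insc at 3.75 the exception. Glial markers were split, with repo at -2.92 and Gs2 at -4.20 against gcm at 2.53 and moody at 1.70.

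JAK-STAT ligands rose together. The 3 unpaired genes encode the only ligands of the fly pathway, and upd3 stood at 7.20, upd2 at 6.16 and upd1 at 3.23; the adjusted p of upd3 is listed as 0. Of 14 pathway genes 12 were listed, 9 higher and 3 lower, with a median of 1.71. Targets were higher too: chinmo at 4.57, the zinc finger gene zfh1 at 3.63 and the feedback inhibitor Socs36E at 2.31. The inhibitor genes Socs44A and Socs16D differed from each other, at 1.11 and -0.54. Between ligands and targets, the receptor gene dome was higher at 1.01 and the factor gene Stat92E at 0.43, while the kinase gene hop was lower at -0.22.

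Genes of JNK signalling, wound response and growth delay were the most uniformly higher of the signalling lists. Of 20 genes 19 were listed and 18 were higher, with a median of 1.15; 11 of 19 were higher when centred on the cytosolic ribosomal protein genes. The median was 0.37 over kinases, 1.25 over transcription factors and 2.41 over targets. The kinase genes msn, hep and Tak1 stood at 0.37, 0.50 and 0.32. The factor genes were higher by more: Jra at 0.67, kay (Fos) at 1.36, Atf3 at 3.14 and Ets21C at 5.57. Targets spread widest, with the phosphatase puc at 1.38, the matrix protease Mmp1 at 2.41, the filamin gene cher at 3.48 and Ilp8, the relaxin-like hormone by which damaged discs delay metamorphosis, at 5.80. The TNF ligand egr was higher by little, at 0.40. Of its receptor genes, grnd was higher at 0.22 and wgn was lower at -1.32.

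The other mutants' own values for these genes varied. Atf3 was at 0.92 in PH505 and -0.76 in Ez731, egr was lower in all 3 other tables (-1.09, -0.74 and -0.94), and scaf, a secreted JNK target at 1.96, was in no other table. Ilp8, by comparison, was high in every table, at 6.28 in PH505, 4.50 in Ez731 and 4.26 in Suz12. The differences between mutants were not tested.

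EGFR and FGF pathway genes were mostly lower. Of 28 genes 24 were listed, 18 lower and 6 higher, with a median of -0.58. The genes of intramembrane proteases that free some of the EGFR ligands were far lower, with ru at -7.65 and rho at -2.63. The receptor gene Egfr stood at -1.80 and the feedback inhibitor aos at -2.74. The ligand genes were split, since the neuregulin-like ligand vn was higher at 1.52 and the FGF ligand ths lower at -4.33.

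In the Wnt list 13 of 18 listed genes were lower, with a median of -0.39, and all 5 receptor genes were lower, led by fz2 at -3.31 and the co-receptor arr at -2.35. The feedback gene nkd (0.82) and the destruction complex gene Apc (0.86) were higher. In the Hedgehog list 8 of 9 were lower, including hh itself at -2.04 and the co-receptor ihog at -1.36, while the transcription factor gene ci was higher at 0.68. In the BMP and activin list 16 of 23 were lower, with a median of -0.66: the activin-type ligand Actbeta stood at -4.92, the Tolloid-type protease tok at -3.90, the type I receptor tkv at -1.29 and the target salm at -2.40. The glypican gene dally was higher at 0.69. Centred on the cytosolic ribosomal protein genes, none of the listed Wnt, BMP and activin genes was higher, nkd, Apc and dally included.

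Hippo and Fat pathway genes were split, with 6 of 15 listed genes higher and a median of -0.20, but 1 of 15 higher when centred on the cytosolic ribosomal protein genes. The upstream scaffold gene kibra was highest at 2.86, with Mer at 0.60 and ex at 0.64. The kinase gene hpo was lower at -1.90, as were the myosin gene dachs (-1.93) and the Golgi kinase gene fj (-1.95). The survival target Diap1 stood at -0.68.

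Ecdysone-dependent genes were mostly lower, and ImpE2 had the lowest fold in the top 25% of calls by log2 CPM. Ecdysone is the steroid hormone that drives the end of larval life. Of 22 response genes 19 were listed and 18 were lower, with a median of -2.97. Both receptor genes were lower by less, with a median of -0.43. The early nuclear receptor genes Hr3 and Hr4 stood at -5.69 and -5.53, and the ABC transporter gene E23 at -3.65. Inducible products were lower by more, with ImpE2 at -9.27, ImpE3 at -6.89, ImpL1 at -5.02 and the protease gene Sb at -4.74. The prepupal factor gene ftz-f1 was the exception, higher at 1.64. Of 125 cuticle protein genes 33 were listed (26.4%, against 69.4% of all genes tested). Among these 28 were lower, with a median of -3.22, from Cpr30B at -7.53. Their median log2 CPM was 0.72, within the lowest group of calls, where lower calls also prevailed (median log2 fold -1.54). Edg91 was higher at 4.12.

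Genes that make ecdysone, whose products are known from the prothoracic gland rather than from discs, were also listed. All 4 listed synthesis genes were lower: GstE14 (nobo) at -7.23, phtm at -6.89, sad at -6.12 and dib at -3.65. In the prothoracic gland marker list, which shares those genes, 5 of 7 were listed, all lower, with log2 CPM from 2.39 to 8.0; tor, the receptor of the gland's timing signal, stood at -2.65. Salivary gland markers were lower in 6 of 7 listed genes, with Sgs3 at -4.87, Eig71Ee at -4.23 and Sgs8 at -3.82. Their part in the ecdysone result was not tested. The heterochronic genes split by stage: the early genes lin-28 and chinmo stood at 5.15 and 4.57, and the late genes Eip93F and Syp at -2.97 and -2.38.

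Junction and matrix genes differed in direction. In the polarity and septate junction list 19 of 29 genes were listed, 12 lower and 7 higher, with a median of -0.29; 2 of 19 were higher when centred on the cytosolic ribosomal protein genes. The adherens junction genes were all lower where listed (4 of 4), with ed at -2.18 and the E-cadherin gene shg at -1.71. Septate and basolateral genes were divided, with the tumour suppressor l(2)gl at 1.34 and cora at 1.01 against Gli at -1.69 and Fas3 at -1.23. Of 8 innexin genes, which form gap junctions, 4 were listed (50%, against 69.4% of all genes tested). All 4 were lower: Inx2 at -1.92, ogre at -1.83, shakB at -1.39 and Inx7 at -1.25.

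Basement membrane and integrin genes were higher in 14 of 17 listed cases, with a median of 0.85; centred on the cytosolic ribosomal protein genes, 8 of 17 were higher. Nidogen (Ndg) stood at 5.61, papilin (Ppn) at 2.34, the laminin gene LanA at 1.38, the integrin beta gene mys at 1.32 and the collagen IV genes vkg and Col4a1 at 1.21 and 0.79. The proteases were opposed, with Mmp1 at 2.41 and Mmp2 at -4.50. Several of these genes were lower in the other mutants. Ndg stood at -2.17 in Ez731 and -2.66 in Suz12, and vkg at -0.99 in PH505, -1.45 in Ez731 and -1.02 in Suz12. Over the list, 4 genes were higher and 8 lower in PH505, and 5 higher and 8 lower in each of Ez731 and Suz12.

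Blood cell markers moved with the matrix genes. Of 15 hemocyte markers 12 were listed and 10 were higher, with a median of 1.53 and log2 CPM from 1.83 to 10.22. The scavenger receptor Sr-CI stood at 2.24, the GATA factor srp at 2.13, Hml at 1.82, the phagocytosis receptor NimC1 at 1.6 and the crystal cell oxidase PPO2 at 1.47, while lz, also an eye gene, was lower at -2.42. Ppn and Pxn belong to both lists, and hemocytes are known to make collagen IV. In Ez731 several of these markers were lower, with Hml at -1.79, Sr-CI at -1.40 and PPO2 at -2.07, and the collagen gene Col4a1 was at -1.37. Of the 15 markers PH505 listed 9, with 2 higher and 7 lower. Ez731 and Suz12 also listed 9 each, with 1 higher and 8 lower in both. The part of hemocytes in the matrix result was not tested.

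The protein synthesis machinery was higher as a block. Of 93 cytosolic ribosomal protein genes 78 were listed (83.9%, against 69.4% of all genes tested). All 78 were higher, within a narrow range from 0.50 (RpLP0-like) to 1.22 (RpL7-like) around a median of 0.88. Both end genes are named only as ribosomal protein-like. In PH505, where 12.1% of genes tested were called higher, 13 of the 93 were called, all higher, with a median of 0.26. Mitochondrial ribosomal protein genes were higher in 55 of 55 listed cases (median 0.57), respiratory chain subunits in 60 of 61 (0.59), aminoacyl-tRNA synthetases in 20 of 21 (0.54), translation initiation factors in 29 of 30 (0.48) and chaperonin subunits in 7 of 7 (0.42). Log2 folds of this size depend on scaling. Relative to the cytosolic ribosomal protein genes, the split turned to 3 of 55, 2 of 61, 2 of 21, 2 of 30 and 0 of 7 higher.

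Within those families single members stood out. TyrRS was highest of the synthetases at 0.93, and the mitochondrial valine enzyme ValRS-m was lower at -0.60. Of the initiation factors eIF2A stood at 1.04 and eIF4G2 at -0.61, and of the respiratory chain genes Cyt-c1 stood at 1.11 and ATPsynepsilonL at -1.66. Of 33 vacuolar ATPase genes 13 were listed (39.4%, against 69.4% of all genes tested). Of these 11 were higher (1 of 13 when centred on the cytosolic ribosomal protein genes), with VhaM9.7-a lower at -4.26. Proteasome subunits went the other way: all 25 listed of 48 (52.1%) were lower, with a median of -0.35. The variant subunits Rpt6R and Rpt3R were lowest at -3.15 and -1.08, and Rpt6R had a log2 CPM of only -0.06.

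**Figure D4:**
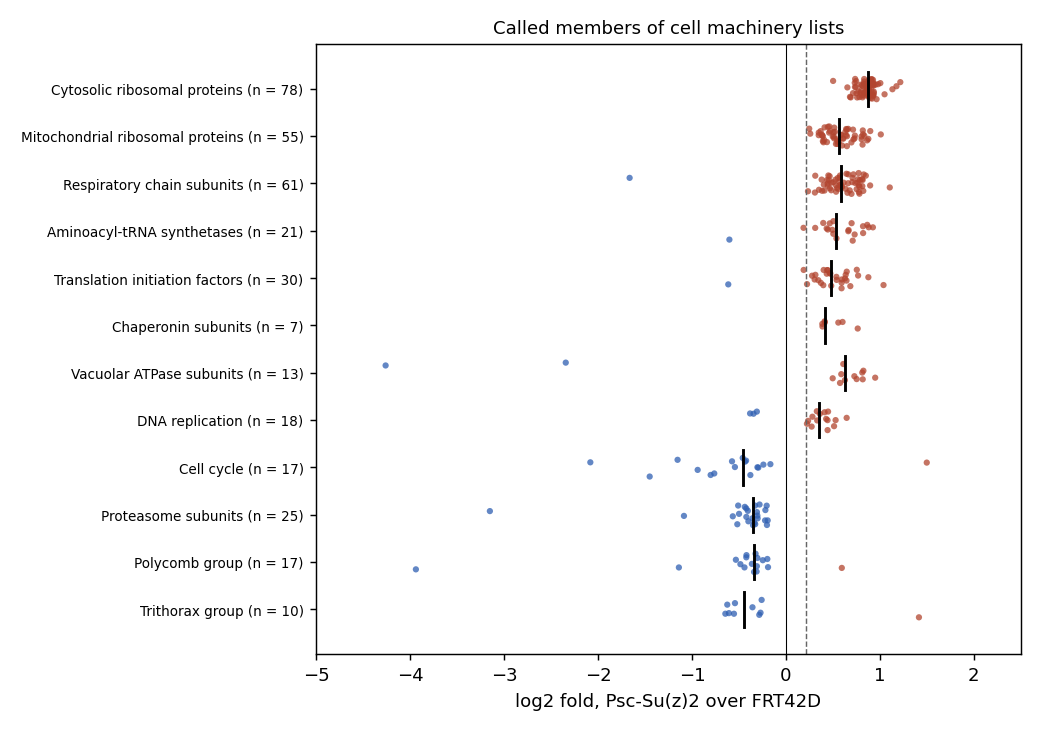
Authors' log2 fold of every called member of cell machinery lists, with n the number called, each point 1 gene, the black bar the list's median and the dashed line the median over all calls (0.21). Translation and respiration genes cluster between 0 and 1.3 with few exceptions, and proteasome, cell cycle, Polycomb and Trithorax genes cluster below 0.

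Cell cycle regulators and replication genes moved in opposite directions. Of 24 cell cycle genes 17 were listed and 16 were lower, with a median of -0.46: the mitotic phosphatase gene stg (Cdc25) stood at -2.08, CycB at -0.80, Cdk2 at -0.94 and the inhibitors dap and fzr at -1.45 and -1.15. Myc was the exception at 1.5. Of 27 DNA replication genes 18 were listed and 15 were higher, with a median of 0.35, but none of the 18 was higher when centred on the cytosolic ribosomal protein genes. The primase subunit Prim1 stood at 0.65 and RnrL at 0.45, and the licensing inhibitor geminin at -0.38.

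Of 13 cell death genes 10 were listed, 4 higher and 6 lower, with a median of -0.40. The inducer hid was lower at -2.13 and the inducer rpr higher at 1.17, with p53 at 0.97. The initiator caspase gene Dronc (-0.82) and the effector caspase gene Drice (-0.78) were lower. In the insulin and TOR list 7 of 12 listed genes were higher (4 of 12 centred on the cytosolic ribosomal protein genes). The translation brake Thor stood at 1.74, Ilp6 at 1.95 and REPTOR at 2.15, while the TOR inhibitor genes chrb and scyl were lower at -2.18 and -1.58. Lactate dehydrogenase (Ldh) was higher at 4.04, whereas the 7 listed glycolytic enzymes lay between -0.50 (Gapdh2) and 0.71 (Ald1).

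Detoxification families differed. Of 35 glutathione S-transferase genes 22 were listed and 17 were higher, with a median of 0.95, among them GstE7 at 4.48, GstD2 at 3.68 and GstE1 at 3.41; centred on the cytosolic ribosomal protein genes, 11 of 22 were higher. Of 87 cytochrome P450 genes 32 were listed (36.8%, against 69.4% of all genes tested) and 21 of these were higher, with Cyp6a9 at 6.24, Cyp6a20 at 5.43 and Cyp4c3 at 4.94, and Cyp4e1 lower at -3.72. The 10 listed UDP-glycosyltransferase genes (28.6% of that list) were 5 higher and 5 lower. Heat shock genes went the other way, with 10 of 12 listed lower: l(2)efl stood at -5.16, Hsp27 at -2.66 and Hsp23 at -2.16. The Hsp70 copies Hsp70Ba (-1.78) and Hsp70Ab (-1.74) are near identical, so their separate values are uncertain.

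Of 28 immune genes 11 were listed (39.3%, against 69.4% of all genes tested). None of 13 antimicrobial peptide genes was listed, and whether they were tested is not known. Of 5 recognition genes 2 were listed. The recognition proteins PGRP-SA and PGRP-LC stood at 3.74 and 2.34, the Toll ligand spz at 3.22 and the Toll factor dl at 1.13, whereas the receptor Tl was lower at -1.37. The thioester proteins Tep2 and Tep4 were higher at 2.73 and 1.59, and Tep1 was lower at -1.93.

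Genes of the Polycomb system itself were slightly lower. Of 23 Polycomb group genes 17 were listed and 16 were lower, with a median of -0.34. All 7 listed PRC1 genes were lower; apart from Psc they stayed close to 0, with ph-d at -0.53, ph-p at -0.48 and the ring ligase gene Sce at -0.42. The PRC2 subunit esc was higher at 0.60 and the PRC2 cofactor jing lower at -1.14. Of 16 Trithorax group genes, which counter Polycomb silencing, 10 were listed and 9 were lower. The remodelling genes brm and mor stood at -0.62 and -0.64, and trx at -0.55, while ash2 was higher at 1.42.

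Germ line and piRNA genes were higher in 12 of 15 listed cases, with a median of 0.82, but in 7 of 15 when centred on the cytosolic ribosomal protein genes and in 1 of 3 among genes from the median log2 CPM upward. The piRNA factor mael stood at 5.07, piwi at 3.01 and aub at 1.77, while krimp and ovo were lower at -1.87 and -1.80.

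Muscle markers were lower in 9 of 14 listed cases, with a median of -1.80. Contractile genes made up the lower end, with Mhc at -4.63, Tm2 at -4.58 and Mlc1 at -4.43, whereas the myoblast factor twi was higher at 2.76. Of 10 fat body markers 2 were listed (20%, against 69.4% of all genes tested), Fbp1 at -1.59 and Lsp1beta at 0.64. Of the 12 eye disc markers 11 were listed, all lower, with a median of -5.03 and log2 CPM from 3.27 to 7.97. All 11 also belong to the retinal determination or photoreceptor lists above, so this is not a separate result. These genes were detected, but their level in each arm cannot be read from the table.

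Most Psc-Su(z)2 calls had no counterpart in the other tables, but absence from those tables is common for any gene and is not read as particular to these calls. The other tables call fewer genes: 2349 for PH505 (26.7% of 8804 tested), 1303 for Suz12 (14.6% of 8907) and 882 for Ez731 (9.87% of 8934). Of the 6170 genes, 3707 (60.1%) were in none of them, 2054 higher and 1653 lower. These were smaller changes, with a median size of 0.59 on the log2 scale, against 1.39 for the 2463 genes called elsewhere too. Genes of at least median log2 CPM found in no other table were led by bgm, an acyl-CoA synthetase gene, at 6.0, the transglutaminase gene Tg at 4.76 and Sirup, an assembly factor of a respiratory enzyme, at 4.31. They included thw at 4.29, the tetraspanin Tsp42El at 3.72, kibra at 2.86 and Hmgs of the mevalonate pathway at 1.90. At the lower end stood the lipoprotein receptor LRP1 at -2.65, the kinase nmo at -2.40, sob at -2.33, ems at -2.22 and the adenylyl cyclase rut at -2.0. The Fat-Hippo genes dachs and hpo and the E-cadherin gene shg were in that set as well.

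Where a gene was called in both tables, the sizes differed. With PH505, also a PRC1 subunit mutant, 1977 genes were shared, which is 32.0% of Psc-Su(z)2 calls and 84.2% of PH505 calls. These shares stand beside the 26.7% of genes tested that PH505 called and the 69.4% that Psc-Su(z)2 called. Of the shared genes, 1736 (87.8%) had the same direction. Of those 1736, the change was larger in Psc-Su(z)2 for 1451 (83.6%), and their median size was 1.42 there against 0.72 in PH505. With Suz12, 1061 genes were shared and 77.0% had the same direction, and with Ez731, 692 were shared and 67.2% had the same direction. Across all 4 tables, 239 genes had the same direction, 51 higher and 188 lower. The tables differ in control strain, and no test of the difference between mutants could be made from them.

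**Figure D5:**
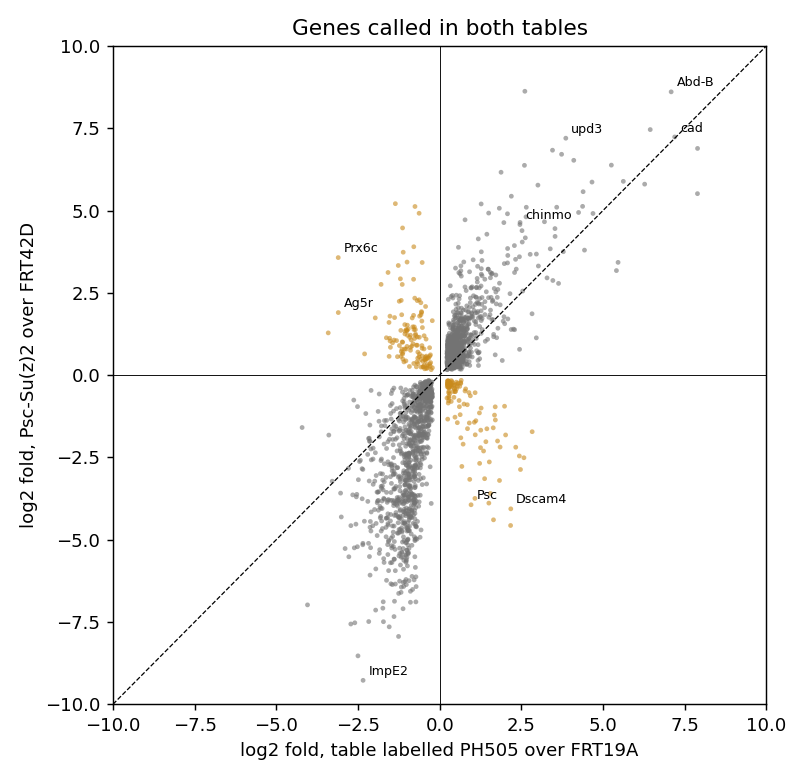
Authors' log2 fold in Psc-Su(z)2 (y axis) against PH505 (x axis) for the 1977 genes called in both, each point 1 gene, grey with the same direction and orange opposite, with the dashed line marking equal folds. Most points lie farther from 0 on the y axis than on the x axis, and 241 genes lie in the opposite quadrants.

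A smaller group moved in opposite directions. Against PH505 there were 241 such genes. The peroxiredoxin gene Prx6c stood at 3.57 in Psc-Su(z)2 and -3.11 in PH505, and Ag5r, of the antigen 5 family, at 1.90 and -3.10. On the other side were the immunoglobulin gene Dscam4 at -4.06 and 2.18, tut at -2.51 and 2.58, and the neural progenitor gene erm at -2.19 and 1.85. Of the 515 genes called in Psc-Su(z)2 and in both PRC2 tables, 129 (25.0%) were opposite to both, 56 of them higher in Psc-Su(z)2. Both PRC2 tables use the FRT2A control, so their agreement with each other is not independent. Gnmt, a glycine methyltransferase gene, stood at 3.15 in Psc-Su(z)2, -3.87 in Ez731 and -3.56 in Suz12. The glial and blood cell factor gcm stood at 2.53, -2.66 and -2.87, and Ndg at 5.61, -2.17 and -2.66. In the reverse sense Kots stood at -2.58, 5.89 and 5.14 and the testis-type proteasome gene Rpt6R at -3.15, 2.51 and 3.17. Several of these genes had a low log2 CPM: Rpt6R -0.06, Kots -0.0005, erm 0.65, Gnmt 1.03 and Ag5r 1.13. Their large folds are to be read with caution. Ndg and Dscam4 were higher, at 4.57 and 4.52. The blood cell gene gcm2 was at 2.59 in Psc-Su(z)2 against -1.79 and -2.72. The hemocyte markers Hml, srp, Sr-CI and PPO2 were also higher in Psc-Su(z)2 and lower in both PRC2 tables, whereas lz was lower and Ppn higher in all of them. In PH505, 7 of the 9 listed hemocyte markers were lower as well. The part of hemocytes in the opposite calls was not tested.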

How the data were processed

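Total RNA (1 microgram per library) was amplified by PCR for 15 cycles and sequenced as single reads for 50 cycles, per the labels' protocols. The submitters' processing notes name edgeR 2.6.2, Bowtie2 2.1.0.0, TopHat2 2.0.8b and genome build BDGP5. The sources do not state whether counting used strand, so overlapping antisense genes may share reads. The log2 fold, log2 CPM, p-value and false discovery rate are the authors' deposited values, per the file headers, and their tables hold only genes under a 5% false discovery rate. The p-values measure the spread between the authors' 2 replicates, which may be technical. The ChIP-seq region lists were not used here.

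From these values, counts, medians and shares were computed in pandas 2.3.3, scipy 1.17.1 and numpy 2.4.6 under Python 3.11.15, and drawn with matplotlib 3.10.9. No test was added. How many genes the authors tested was taken as the most frequent value of false discovery rate times rank over p, a step checked on simulated data. Of 6170 identifiers, 289 matched no symbol. Neighbours came from gene order in the Release 6 annotation, another build, so no coordinates are given. Exact 95% intervals cover counting error only. Counts of a list are out of its named genes, and members not listed are not read as unchanged.

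The 59 gene lists and the members were chosen with earlier results of these data known. Named genes were Psc and its listed neighbours, the 10 highest and 10 lowest folds in the top 25% of log2 CPM and among genes of no other table, up to 8 members of a longer list with the largest folds plus the largest exception, and the 10 strongest opposite calls. Sets are named in part. Other members, chiefly signalling and matrix genes, were named after their values were seen. Alternatives were a 1% false discovery rate, a 2-fold change, the median log2 CPM, and centring on the median of all calls (0.21) or of cytosolic ribosomal protein genes (0.88).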

Additional observations from a re-analysis of the deposited data

How the results depend on the processing

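No paired analysis was possible because the deposited tables hold no values per replicate, and leaving out a replicate was not possible for the same reason. Only called genes and their folds could be varied. Requiring 2-fold left 2482 calls, 996 higher and 1486 lower, or 40.1% higher. At or above the median log2 CPM there were 3085 calls, 1723 higher and 1362 lower, or 55.9% higher. Centred on the cytosolic ribosomal protein genes, 1197 calls were higher and 4973 lower, or 19.4% higher. Which scaling is right was not tested.

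Of 58 lists with at least 3 called members, 58 kept their direction at a 1% false discovery rate. At 2-fold, 50 of 54 did; the Trithorax (100% higher) and glycolysis (100%) lists turned on 1 gene each, vacuolar ATPase had 0% of 2 higher and trachea 25.0%. At the median log2 CPM, 53 of 56 did, with segmentation at 60.0%, germ line at 33.3% and germ cell at 0%. Centred on the median of all calls, peripodial markers (42.9%) turned. Centred on the cytosolic ribosomal protein genes, 36 of 57 did, 14 turned and 7 moved without turning. The share higher turned for wing, leg and genital selectors (41.7%), basement membrane (47.1%), DNA replication (0%), insulin (33.3%), germ line (46.7%), mitochondrial ribosomal (5.45%), respiratory (3.28%), chaperonin (0%), synthetase (9.52%), initiation factor (6.67%), vacuolar ATPase (7.69%), trachea (14.3%), peripodial (42.9%) and germ cell (40.0%) lists. It moved for JNK (57.9%), Wnt (0%), BMP (0%), Hippo (6.67%), polarity (10.5%), nucleoporin (0%) and glutathione S-transferase (50.0%) lists.

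Among the lowest 25% of calls by log2 CPM the share higher was 25.4% at 2-fold and 26.2% centred on ribosomal genes, and among the highest 25% it was 51.8% centred on the median and 19.0% centred on ribosomal genes, where the order of these groups turned. Genes shared at 2-fold numbered 565 with PH505, 275 with Ez731 and 434 with Suz12, and at the median log2 CPM 1011, 269 and 436. The same direction was shared by 90.1% with PH505 at a 1% false discovery rate and by 83.4% with Suz12 at 2-fold. With 5 genes on each side of Psc, 1 neighbour was listed. Depth is unknown, so no limit from it can be given.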

Other observations

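Tetraspanins, small membrane proteins that organise other membrane proteins, had 16 of 34 genes listed in Psc-Su(z)2 (47.1%, against 69.4% of all genes tested). Of these 11 were lower and 5 higher, with a median log2 fold of -0.94. The higher ones included Tsp42Ed at 4.13, Tsp42El at 3.72 and Tsp42Ee at 2.41, all of the Tsp42E cluster, and the lower ones Tsp66E at -3.39 and Tsp68C at -2.42. UDP-glycosyltransferases, which conjugate small molecules, were listed in 10 of 35 cases (28.6%, against 69.4% of all genes tested). There were 5 in each direction, from Ugt36D1 at -5.84 to Ugt35A1 at 5.11. Nucleoporins had 7 of 21 genes listed (33.3%, against the same 69.4%), 3 higher and 4 lower. They ranged from -0.32 (Nup58) to 0.41 (Nup54), whereas all 11 called in the PH505 table were higher.

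Nuclear receptor genes were lower in 13 of 16 listed cases, with a median of -1.19, and the higher ones were eg at 2.20, ftz-f1 at 1.64 and Hr96 at 0.72. This list shares genes with the ecdysone and segmentation lists above, Hr3, ftz-f1 and tll among them, so it is not a separate result. Tracheal markers were listed in 7 of 8 cases, 4 higher, with the tracheal selector trh at 2.95 and vvl at -1.78; centred on the cytosolic ribosomal protein genes 1 of 7 was higher, and 1 of 4 was higher among 2-fold changes. All 7 markers of the thin peripodial layer were listed, 4 higher, with Tig at 4.69 and upd1 at 3.23, and 3 of 7 were higher under either centring. Of germ cell markers 4 of 5 listed were higher, with a median of 0.81, against 2 of 5 when centred on the cytosolic ribosomal protein genes and 0 of 1 at or above the median log2 CPM.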
